A study of Mus musculus with 9 samples.

Results

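Interferon-response genes were followed in cultured mouse RGCs that were normal, aging, or aging and treated with USCs medium. The members were 40 genes picked by symbol from a list of interferon receptors, signalling factors and interferon-stimulated genes, out of 22322 genes measured. All 40 had at least 1 read in some library, 38 passed the filter on low counts, and Zbp1 and Iigp1 did not. In all, 12145 genes were tested.

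RNA was sequenced from mouse RGCs with the label of wild type, bought as a culture and grown in high glucose medium with serum, in 3 groups of 3 libraries each. Normal RGCs received no D-galactose, aging RGCs were made with D-galactose at 30 mg/mL, a sugar used to bring on features of cell aging, and aging RGCs + USCs medium were aging cells then kept in medium conditioned by USCs, which are stem cells grown from human urine. The USCs themselves were removed from that medium. Per the paper, USCs were grown in a special medium for urine stem cells, unlike the high glucose medium of the RGCs. No RGCs kept in such medium without conditioning were sequenced. Effects of the medium itself and of what USCs release into it therefore cannot be told apart. The strain, the age of the donor animals and the time each sequenced culture spent in D-galactose or in the conditioned medium are not stated in the labels or the methods. The 3 libraries of a group came from replicate wells, so the p-values measure the spread between wells and not between separate cultures or animals.

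Cells release interferons when sensors such as RIG-I (Ddx58) and MDA5 (Ifih1) meet foreign or misplaced nucleic acid. Type I interferons bind the Ifnar1 and Ifnar2 receptor, and Jak1 and Tyk2 then activate a complex that holds Stat2 and Irf9 and binds interferon-stimulated response elements in the promoters of antiviral genes. Interferon-γ signals through Ifngr1 and Ifngr2 to genes that hold gamma-activated sequences.

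Library totals ranged from 18189610 to 22342283 expected counts. Of the markers of retinal ganglion cells, Pou4f2 and Pou4f3 were at 0 in every library. Thy1 and Nefh had at most 1 count, Slc17a6 at most 4, Sncg at most 7, Nefm at most 24 and Pou4f1 at most 27. Rbpms, Isl1 and Nefl were present. The summed level of the 11 markers was 138.9 to 150 CPM in normal, 99.2 to 102.6 CPM in aging and 75.4 to 83.5 CPM in medium-treated cells. In this sum Nefl averaged 63.6 CPM in normal, 38.4 CPM in aging and 17.3 CPM in medium-treated cells. Rbpms averaged 61.2, 49.6 and 48 CPM and Isl1 18.9, 12 and 13 CPM in the same order. Krt8 and Krt18, keratins of epithelial cells, had at least 4578 counts in every library, and the summed level of 6 epithelial markers was 694 to 776.5 CPM in normal, 804.6 to 819.2 CPM in aging and 981.3 to 1018 CPM in medium-treated cells. Within that sum, Krt8 averaged 410 CPM in normal, 559.8 CPM in aging and 714.3 CPM in medium-treated cells, whereas Krt18 averaged 320.5, 252.1 and 281.2 CPM and Epcam, an adhesion protein of epithelia, 1.97, 2.06 and 1.42 CPM. The other epithelial markers were at or near 0, with no read of Krt5, at most 2 counts of Krt14 and at most 5 of Cdh1 in any library. Macrophages respond strongly to interferon, and the 12 macrophage markers other than Cd68 and Cd14 summed to 21.2 to 37.6 CPM in normal RGCs, highest in replicate 1. They summed to 3.61 to 12.3 CPM in the aging libraries and to 4.21, 2.68 and 23.3 CPM in medium-treated replicates 1, 2 and 3. Cd68 averaged 38.6, 41.5 and 31.3 CPM and Cd14 12.6, 12.7 and 15.2 CPM in normal, aging and medium-treated cells. Neither average was lower in aging than in normal cells. With Cd68 and Cd14, all 14 macrophage markers summed to 73.8 to 87.1, 58.4 to 65.2 and 45.8 to 75.0 CPM in the same 3 groups. Of these markers, the complement genes C1qa, C1qb and C1qc were at 0 in all aging libraries and in medium-treated replicates 1 and 2. C1qa was at 0 in normal replicate 2 too. In aging replicates 1, 2 and 3, Ptprc had 30, 18 and 20 counts, Lyz2 118, 23 and 38 and Csf1r 41, 12 and 11. Adgre1 had 2, 0 and 1 there, and Aif1 was at 0. The 6 lymphocyte markers and the 6 markers of retinal glia and photoreceptors together stayed under 1 CPM for each list in every library. The part of these markers in the results below was not tested, and in bulk RNA fewer cells of a type and less RNA per cell cannot be told apart.

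Promoters of members are shown first, since the response elements of interferon signalling can be read in them. RefSeq windows of 300 bases, from 250 before to 50 after a gene's start on GRCm38.p6, were found for 32 of the 40 members and not for Dhx58, Usp18, Mx1, Mx2, Parp9, Parp14, Iigp1 and Zbp1. The letters GAAANNGAA, the core shared by interferon-stimulated response elements, were searched on both strands (TTCNNTTTC on the other strand), and overlapping matches were counted. They were present for 17 of 32 members (53.1%), against 2638 of 27025 genes in the promoter table (9.76%). The letters TTCNNNGAA of the gamma-activated sequence, the same on both strands, were present for 11 of 32 members (34.4%) and for 9.55% of all genes. The members were picked as interferon genes, so their higher shares describe the list and are no result of these cultures. A match is a description of letters and does not show that a factor binds.

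Stretches of 6 promoters follow, 5′ to 3′ on the strand of the gene, with each match of GAAANNGAA or TTCNNTTTC in capitals. Ifit3 and Ifi44 were the members with a change of at least 1 on the log2 scale in some comparison and a match, and Irgm1, Trim25, Isg15 and Stat2 were chosen after their values were seen. The stretches lie at chr19:34583334-34583455 (+) for Ifit3, chr3:151749905-151749953 (-) for Ifi44, chr11:48871421-48871490 (-) for Irgm1, chr11:88999354-88999402 (+) for Trim25, chr4:156200856-156200936 (-) for Isg15 and chr10:128270248-128270305 (+) for Stat2.
Ifit3: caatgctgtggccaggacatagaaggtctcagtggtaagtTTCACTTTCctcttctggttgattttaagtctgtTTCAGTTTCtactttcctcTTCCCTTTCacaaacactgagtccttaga
Ifi44: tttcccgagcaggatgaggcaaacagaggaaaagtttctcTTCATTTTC
Irgm1: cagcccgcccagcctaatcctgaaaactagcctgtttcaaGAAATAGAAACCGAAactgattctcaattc
Trim25: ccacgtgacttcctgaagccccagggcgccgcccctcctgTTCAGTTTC
Isg15: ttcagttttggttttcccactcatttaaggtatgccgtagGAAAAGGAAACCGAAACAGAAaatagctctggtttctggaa
Stat2: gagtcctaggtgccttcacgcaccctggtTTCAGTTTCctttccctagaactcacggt

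Ifit3 and Isg15 each held 3 matches, which overlapped in Isg15 and were separate in Ifit3. Irgm1 held 2 that overlapped, and Ifi44, Trim25 and Stat2 held 1 each. The match of Stat2 lay farthest from the start of its gene, and that of Ifi44 and Trim25 closest.

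Levels of the members covered a wide range. In FPKM, which scales reads by length and library size and so allows genes to be compared, the mean over the 9 libraries was highest for Ifitm3 (331 FPKM), Ifitm2 (223 FPKM) and Ifitm1 (193 FPKM), membrane proteins that block the entry of viruses. Samhd1, which depletes nucleotides, followed at 41.1 FPKM, Isg20, an exonuclease, at 30.3 FPKM and the RNA sensor Ddx58 at 29.1 FPKM. At the other end, Zbp1, Mx2, Mx1 and Iigp1 had means of 0.269, 0.26, 0.18 and 0.101 FPKM. Summed over the 40 members, the level was 996.4 to 1114 FPKM in normal, 955.2 to 1017 FPKM in aging and 1061 to 1093 FPKM in medium-treated libraries, and these sums are dominated by the Ifitm genes.

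**Figure D1:**
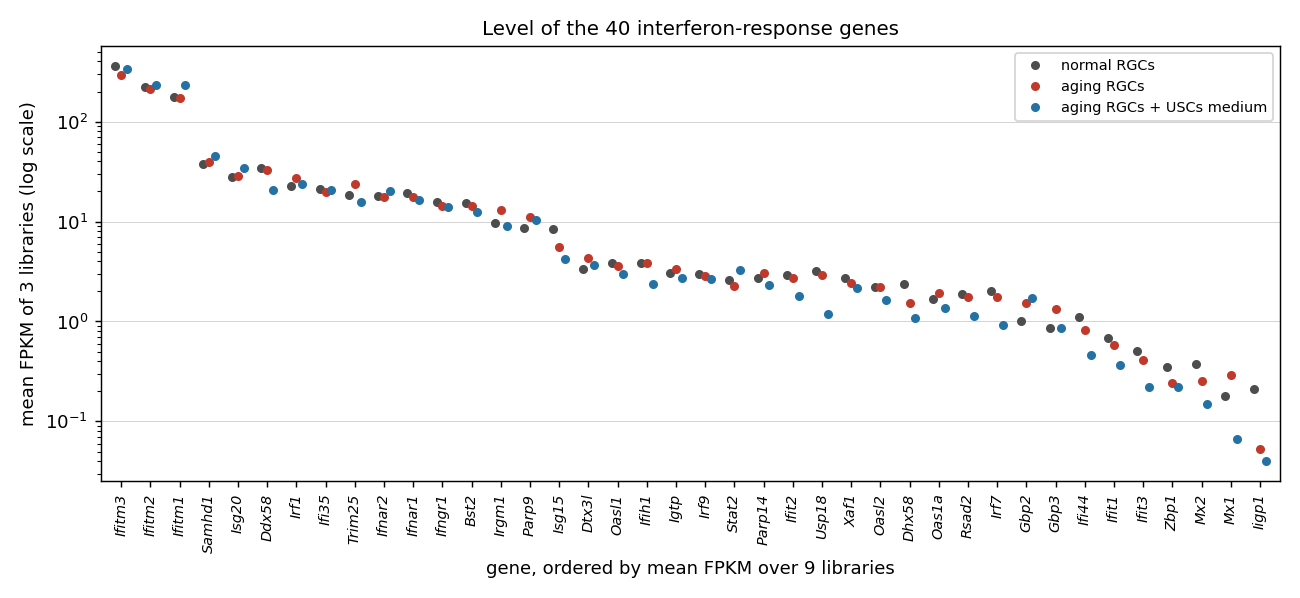
Mean FPKM of 3 libraries on a log axis for each of the 40 interferon-response genes, ordered from left to right by the mean over all 9 libraries, with a point for each group (grey normal, red aging, blue medium-treated). The Ifitm genes stand highest, and the points of medium-treated cells lie below the others for many genes of low level, from Usp18 and Dhx58 to Mx1.

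None of 21 interferon genes on the list of ligands passed the filter on low counts. Of these, 16 were at 0 in all 9 libraries, including Ifnb1, and in libraries of this depth 0 counts allow up to 0.13 to 0.162 CPM (3 counts, counting error only). Ifnz had 6, 2 and 4 counts in normal RGCs, 0, 0 and 3 in aging RGCs, and 1, 2 and 1 in aging RGCs + USCs medium. Ifne had 5 counts in aging replicate 3, 1 in normal replicate 3 and none elsewhere, and Ifna13, Ifnk and Ifng reached at most 1 count in any library. Interferon mRNA was near or under the limit of detection in all 3 groups.

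Aging RGCs were compared with normal RGCs to ask how interferon-response genes stood after D-galactose. In the quasi-likelihood test of edgeR, adjusted by Benjamini-Hochberg over all genes tested, the source of every edgeR adjusted p below, 6 of the 38 members rose (15.8%) and 3 fell (7.89%) at an adjusted p under 0.05. Among all genes tested, 23.6% rose and 23% fell. Irf1, Trim25, Parp9, Dtx3l, Gbp2 and Irgm1 rose and Dhx58, Isg15 and Ifitm3 fell. None of the 38 had a change of at least 1 on the log2 scale, whatever its p, while 1.09% of all genes rose and 1.56% fell by that much at an adjusted p under 0.05. The median log2 fold change of the members was -0.0678, against 0.00185 over all genes. At a fold change of at least 1.5, 1 member rose and 1 fell (2.63% each), beside 3.1% and 4.82% of all genes. Without normal replicate 2, where Iigp1 passed the filter and 39 members were tested, 6 fell, among them Iigp1. Without normal replicate 1 and medium-treated replicate 3 together, the pair with the highest macrophage markers of their groups, 8 rose and 4 fell. The share of all genes called was not computed for these refits, so their counts cannot be set against all genes.

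Aging RGCs + USCs medium were compared with aging RGCs to ask how the members stood in the conditioned medium, with no unconditioned medium as a control. Here 12 members fell (31.6% of 38) and 8 rose (21.1%), beside 26% and 27.1% of all genes tested. The 12 that fell were Irf7, Ifih1, Ddx58, Dhx58, Ifit2, Rsad2, Mx1, Usp18, Trim25, Parp14, Irgm1 and Ifi44, and the 8 that rose were Ifnar2, Stat2, Isg20, Ifitm1, Ifitm2, Ifitm3, Samhd1 and Ifi35. With a change of at least 1 on the log2 scale, 2 fell (Mx1 and Usp18, 5.26%, against 4.21% of all genes) and 0 rose (1.24% of all genes), since no member was higher by that much whatever its p. At a fold change of at least 1.5, 6 members fell (15.8%) and 1 rose (2.63%), beside 8.34% and 3.47% of all genes. Ifih1 (1.503-fold lower), Ddx58 (1.505-fold lower) and Stat2 (1.505-fold higher) lay just past that cutoff. The median log2 fold change was -0.206 for the members and -0.00666 over all genes. Without normal replicate 1 and medium-treated replicate 3 together, 11 fell and 8 rose, with no share of all genes computed for that fit. Without TMM factors, 15 members fell and 7 rose, and the share of all calls that were higher went from 51.1% to 35.8%.

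Against normal RGCs, aging RGCs + USCs medium had 15 members lower (39.5% of 38) and 10 higher (26.3%), beside 29.9% and 30.6% of all genes. A change of at least 1 on the log2 scale was met by 7 that fell, Irf7, Dhx58, Ifit3, Mx1, Mx2, Usp18 and Ifi44 (18.4%, against 5.24% of all genes), and by 0 that rose (1.47% of all genes), where again no member reached that size whatever its p. Without normal replicate 1 the 7 that fell became 4, Dhx58, Mx1, Usp18 and Ifi44 (10.5%, against 5.08% of all genes in that fit). Without it and medium-treated replicate 3 together they became 3, Ifit3, Usp18 and Ifi44 (7.89%, against 5.45%). With any other single library left out they numbered 5 to 7 (12.8% to 17.9%, against 4.99% to 5.71%). Where 39 members were tested, Iigp1 was among them, and Ifit3 only without medium-treated replicate 3. At a fold change of at least 1.5, 11 members fell (28.9%) and 1 rose (2.63%), beside 11% and 4.57% of all genes. The median log2 fold change was -0.121, against -0.0127 over all genes. Without TMM factors, 20 members fell and 6 rose, the median of all genes moved to -0.113, and the share of all calls that were higher went from 50.6% to 34.7%. Without normal replicate 1 and medium-treated replicate 3 and with no size required, 13 fell and 9 rose, again with no share of all genes computed. The 3 comparisons share libraries, so their calls are not independent of each other.

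**Figure D2:**
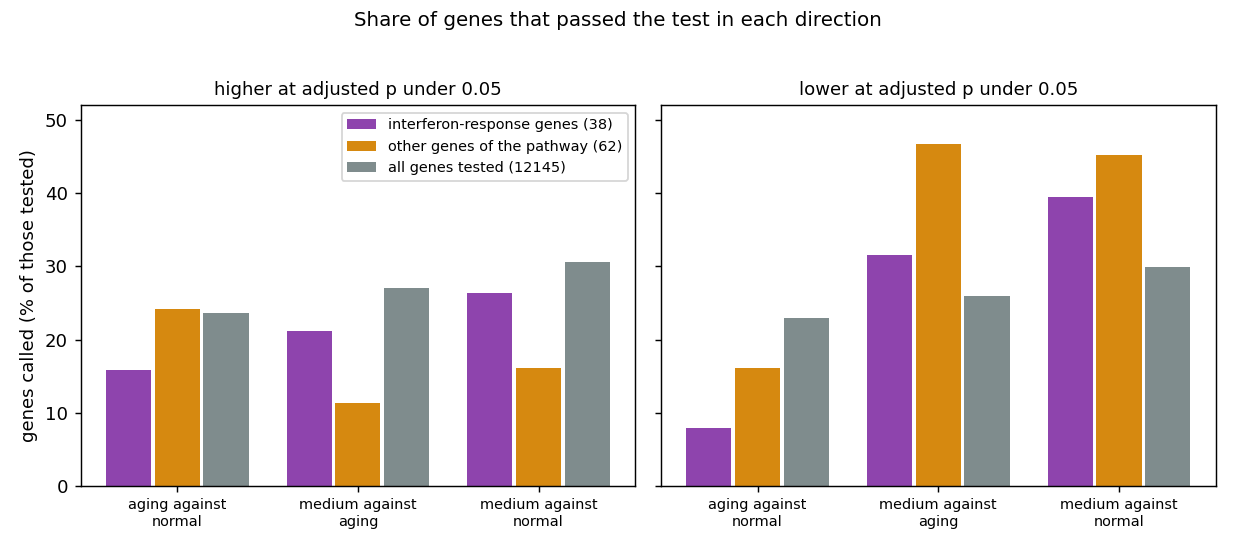
Percent of genes called higher (left) and lower (right) at an adjusted p under 0.05 in each comparison, for the 38 interferon-response genes tested, 62 other genes of the pathway and all 12145 genes tested. Members fell in 31.6% and other genes of the pathway in 46.8% of cases in medium-treated against aging RGCs, where all genes stand at 26%. In aging against normal RGCs these shares were 7.89% and 16.1%, where all genes stand at 23%. Both lists were chosen with earlier results of these data known.

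**Figure D3:**
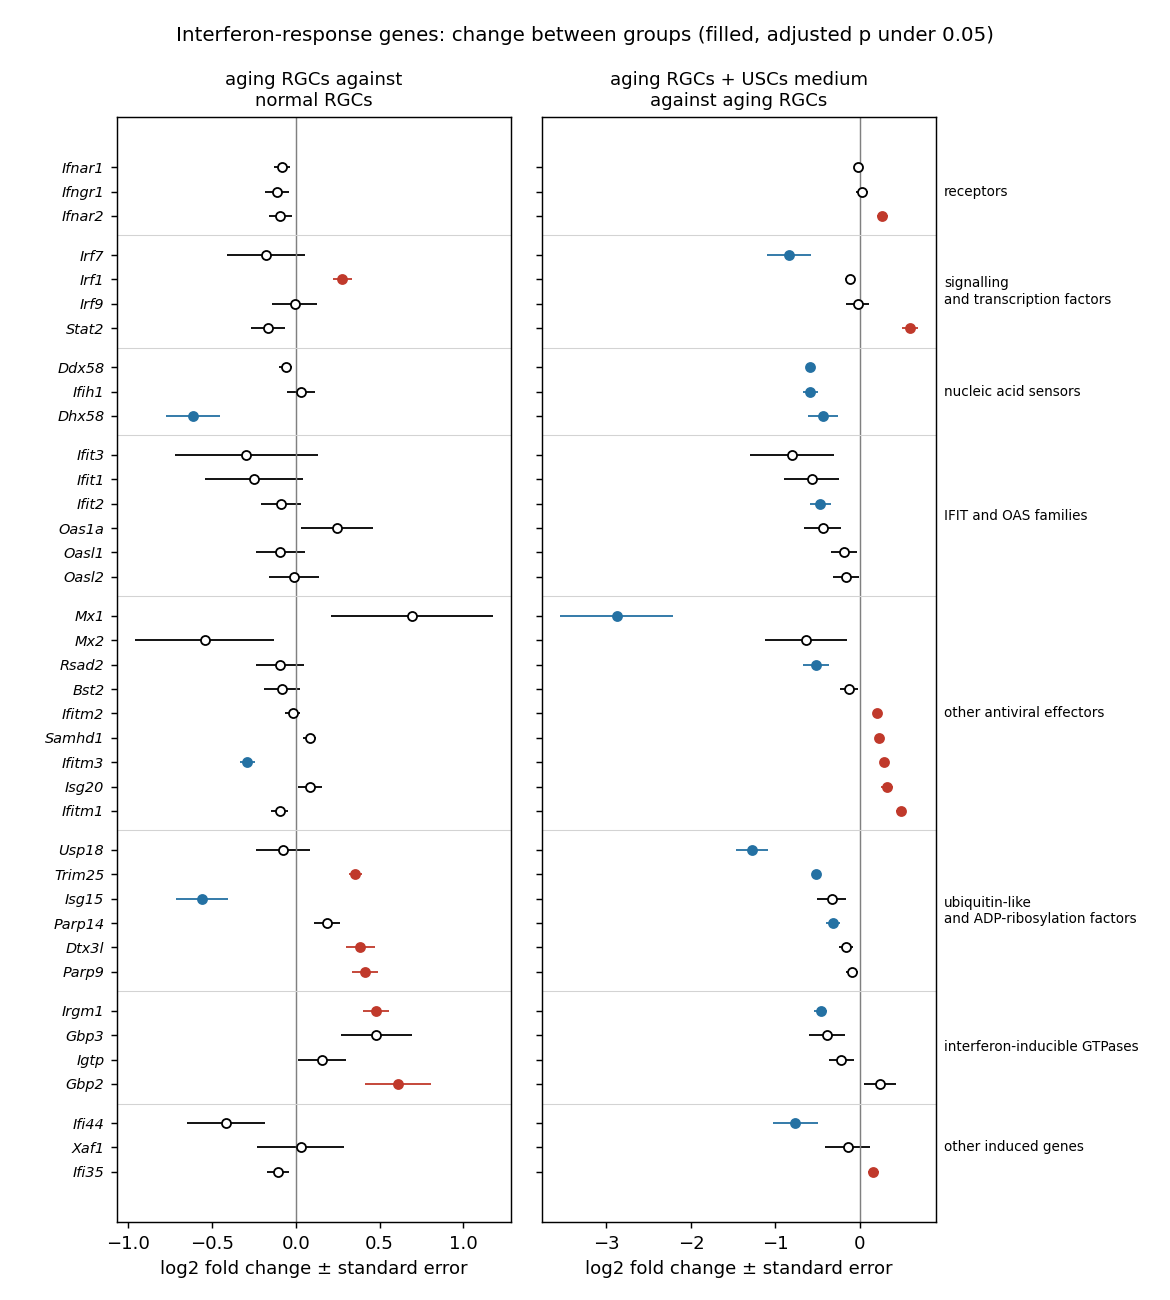
Log2 fold change with its standard error for the 38 interferon-response genes tested, grouped by role, in aging against normal RGCs (left) and in aging RGCs + USCs medium against aging RGCs (right), on axes of different range. Filled points passed an adjusted p under 0.05. On the right the 3 nucleic acid sensors tested all lie below 0, the 3 Ifitm genes all lie above 0, and Mx1 lies farthest from 0.

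Of the 3 member receptors, Ifnar2, the high-affinity chain of the type I interferon receptor, rose in medium-treated against aging RGCs. Ifnar2 (chromosome 16, 91372783 to 91405589) stood at 27.2, 28.5 and 25.3 CPM in normal RGCs, 25.6, 24.5 and 26 CPM in aging RGCs and 31.4, 30.2 and 29.9 CPM in aging RGCs + USCs medium. All 3 medium-treated values lay above the other 6. Its log2 fold change was 0.27 (standard error 0.0672) against aging RGCs, with an edgeR adjusted p of 0.00142, and 0.17 against normal RGCs, with an adjusted p of 0.0237 that reached 0.338 over 8 alternative settings. Ifnar2 shares exons with the readthrough gene Gm21970 on the same strand, so its count is uncertain.

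Ifnar1, the chain that carries Tyk2, had 70.1, 71.5 and 69.4 CPM in normal RGCs, 67.7, 66.1 and 65.7 CPM in aging RGCs and 65.2, 62.6 and 67.7 CPM in aging RGCs + USCs medium. Its log2 fold change was -0.11 in medium-treated against normal RGCs (edgeR adjusted p = 0.0415), a call lost in 9 alternative settings with adjusted p up to 0.182. For Ifngr1, the ligand-binding chain of the interferon-γ receptor, the values were 29.2, 32.6 and 35.5 CPM, 29.9, 30.7 and 29.3 CPM, and 28, 31 and 32.6 CPM in the same order. The 3 groups overlapped for Ifngr1, and it passed the test in no comparison, with log2 fold changes of -0.11, 0.03 and -0.08.

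Of the signalling and transcription factors, Stat2 rose and Irf7 fell with the medium, Irf1 rose in aging RGCs, and Irf9 passed the test in no comparison. Stat2, the partner of Irf9, had 11.3, 11.1 and 10.8 CPM in normal RGCs, 9.95, 10.6 and 9.16 CPM in aging RGCs, and 14.7, 14.2 and 15.7 CPM in aging RGCs + USCs medium. The medium-treated values were above all others, and the log2 fold change against aging RGCs was 0.59 (standard error 0.0981, edgeR adjusted p = 1.08e-05), or 1.5-fold. Against normal RGCs it was 0.43 (edgeR adjusted p = 0.000345).

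Irf7, the factor that amplifies the production of type I interferon and is itself interferon-induced, had 4.76, 2.42 and 3.11 CPM in normal RGCs, 3.19, 2.99 and 2.99 CPM in aging RGCs, and 1.23, 1.94 and 1.95 CPM in aging RGCs + USCs medium. Every medium-treated library was below every other library, and normal replicate 1, the library with the highest macrophage markers, was far above the other normal ones. The 12 macrophage markers other than Cd68 and Cd14 summed to 37.6, 21.2 and 24.8 CPM in normal and 12.3, 3.61 and 4.3 CPM in aging libraries. In medium-treated replicates 1, 2 and 3 the sums were 4.21, 2.68 and 23.3 CPM, and the part of these markers in the Irf7 values was not tested. The log2 fold change of Irf7 in medium-treated against aging RGCs was -0.84 (standard error 0.257, edgeR adjusted p = 0.00741), and the adjusted p was 0.0529 without medium-treated replicate 1. Against normal RGCs it was -1.02 (edgeR adjusted p = 0.000944), and -0.69 with an adjusted p of 0.0298 without normal replicate 1. Irf7 shares exon sequence with Phrf1 on the other strand, and whether reads were counted by strand is not stated.

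Irf1, a factor induced strongly by interferon-γ, had 38.9, 37.6 and 37.3 CPM in normal RGCs, 47.8, 44.2 and 46.1 CPM in aging RGCs and 43.4, 43.3 and 40.4 CPM in aging RGCs + USCs medium. The aging values lay above all the others and the normal values below. The log2 fold change was 0.28 (standard error 0.056, edgeR adjusted p = 0.000161) in aging against normal RGCs and -0.12 (edgeR adjusted p = 0.0754) in medium-treated against aging RGCs. Against normal RGCs the medium-treated value was 0.16 higher (edgeR adjusted p = 0.0158), lost in 7 settings with adjusted p up to 0.37. Irf9, the DNA-binding part of the complex, had 7.88, 5.86 and 7.6 CPM, 7.14, 7.06 and 7.09 CPM, and 6.42, 6.9 and 7.58 CPM, and the groups overlapped. Irf9 shares exons with Rnf31 on the same strand and Irf1 with Gm17334 on the other strand.

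The 3 nucleic acid sensors tested all fell with the medium. Ddx58, the sensor RIG-I (chromosome 4, 40203773 to 40239828), had 131, 124 and 134 CPM in normal RGCs, 126, 121 and 126 CPM in aging RGCs and 80.6, 84.2 and 83.1 CPM in aging RGCs + USCs medium. Normal and aging values overlapped and all medium-treated values were lower. In the fit, the log2 fold change was -0.59 (standard error 0.042, edgeR adjusted p = 2.32e-12) against aging and -0.65 (edgeR adjusted p = 1.4e-13) against normal RGCs, while aging against normal RGCs gave -0.06 (edgeR adjusted p = 0.234). Ifih1, the sensor MDA5, stood at 16.7, 16.6 and 16.7 CPM, then 16.8, 17.9 and 16.5 CPM, then 11, 12 and 11.1 CPM, and its log2 fold change of -0.59 (standard error 0.087, edgeR adjusted p = 1.86e-06) in medium-treated against aging RGCs was close to that of Ddx58.

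Dhx58, the sensor LGP2 that tunes the other 2, was the member of this group that also fell in aging RGCs. It had 5.8, 5.57 and 5.48 CPM in normal RGCs, 3.79, 3.4 and 3.85 CPM in aging RGCs and 2.88, 2.83 and 2.41 CPM in aging RGCs + USCs medium. No 2 groups overlapped, with normal RGCs highest and medium-treated cells lowest. On the log2 scale the change was -0.61 (standard error 0.16, edgeR adjusted p = 0.00242) in aging against normal RGCs and -1.05 (edgeR adjusted p = 3.72e-06) in medium-treated against normal RGCs. In medium-treated against aging RGCs it was -0.44 (edgeR adjusted p = 0.0379), lost in 8 settings with adjusted p up to 0.147. Dhx58 shares exons with its antisense gene Dhx58os. Zbp1, a sensor of Z-form nucleic acid, had 14, 7 and 2 counts in normal RGCs and 2 to 6 counts in the other libraries, and was not tested.

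In the IFIT and OAS families, which bind viral RNA or make the signal that activates RNase L, only Ifit2 of 6 members tested fell with the medium, and no member passed the test in aging against normal RGCs, at an unadjusted p under 0.05 either. Ifit2 stood at 11.3, 10.8 and 9.13 CPM in normal RGCs, 10.1, 9.27 and 10.1 CPM in aging RGCs and 7.81, 5.95 and 7.48 CPM in aging RGCs + USCs medium. The medium-treated values lay below the other 6, with a log2 fold change of -0.47 (standard error 0.126, edgeR adjusted p = 0.0024) against aging RGCs.

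Ifit3 (chromosome 19, 34583531 to 34588731), whose promoter held 3 matches above, rested on few reads, with 20, 23 and 13 counts in normal RGCs, 18, 12 and 11 in aging RGCs and 2, 10 and 12 in aging RGCs + USCs medium. Medium-treated and aging libraries overlapped, and the log2 fold change was -0.80 (edgeR adjusted p = 0.176). Against normal RGCs it was -1.10 (edgeR adjusted p = 0.0459), a call lost in 10 settings with adjusted p up to 0.249. Ifit1 had a log2 fold change of -0.57 (edgeR adjusted p = 0.137) against aging RGCs and of -0.82 (edgeR adjusted p = 0.0234) against normal RGCs, where the adjusted p was 0.206 without normal replicate 1.

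Oasl1, which has the highest level of this group, had 9.83, 7.37 and 7.35 CPM in normal RGCs, 8.54, 8.4 and 6.23 CPM in aging RGCs and 8.01, 6.3 and 5.94 CPM in aging RGCs + USCs medium. Its groups overlapped throughout, with a log2 fold change of -0.19 (edgeR adjusted p = 0.302) in medium-treated against aging RGCs. Oas1a and Oasl2 had -0.44 and -0.17 there and passed the test in no comparison, and Oas1a, which has near-identical copies beside it, carried fractional counts in all 9 libraries.

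The other antiviral effectors split with the medium, since the 3 Ifitm genes, Isg20 and Samhd1 rose and Mx1 and Rsad2 fell. Ifitm3 (chromosome 7, 141009586 to 141010770) stood at 250, 224 and 244 CPM in normal RGCs, 204, 181 and 203 CPM in aging RGCs and 228, 248 and 236 CPM in aging RGCs + USCs medium. The aging values were lower than all the others, and normal and medium-treated values overlapped. Its log2 fold change was -0.29 (standard error 0.0443, edgeR adjusted p = 4.4e-06) in aging against normal RGCs, 0.28 (edgeR adjusted p = 6.01e-06) in medium-treated against aging RGCs, and -0.01 (edgeR adjusted p = 0.851) in medium-treated against normal RGCs.

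Ifitm1, near it on chromosome 7, had 128, 107 and 121 CPM in normal RGCs, 113, 103 and 118 CPM in aging RGCs and 156, 153 and 157 CPM in aging RGCs + USCs medium. Here the medium-treated values exceeded both other groups, which overlapped, with a log2 fold change of 0.48 (standard error 0.0507, edgeR adjusted p = 5.41e-09) against aging RGCs and 0.39 against normal RGCs. Ifitm2 had 0.20 (edgeR adjusted p = 0.000714) against aging RGCs, and its count is uncertain because Gm45717 shares its exons. Isg20 rose by 0.32 (edgeR adjusted p = 0.000522) and Samhd1 by 0.23 (edgeR adjusted p = 2.06e-05) on the log2 scale in the same comparison.

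Mx1, a GTPase that traps viral nucleocapsids (chromosome 16, 97447035 to 97462907), had the largest fitted change of all members and among the fewest reads. Its counts were 10, 5 and 11 in normal RGCs, 17, 10 and 11 in aging RGCs and 3, 1 and 1 in aging RGCs + USCs medium. Every medium-treated library was lower than every other library. Summed over libraries, 38 counts in aging against 5 in medium-treated RGCs gave a 7.8-fold lower level with a 95% interval of 3.06 to 25.4 that covers counting error only, and the fitted log2 fold change was -2.88 (standard error 0.67, edgeR adjusted p = 0.000651). Against normal RGCs the fitted value was -2.18 (edgeR adjusted p = 0.0106), lost in 3 settings with adjusted p up to 0.117, among them the fit without normal replicate 1 and medium-treated replicate 3.

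Mx2, its neighbour, had 26, 9 and 22 counts in normal RGCs, 11, 10 and 14 in aging RGCs and 6, 9 and 8 in aging RGCs + USCs medium. Normal replicate 2 lay within the range of the medium-treated libraries. This gave a log2 fold change of -0.63 (edgeR adjusted p = 0.283) against aging RGCs and -1.18 (edgeR adjusted p = 0.025) against normal RGCs, the latter lost in 6 settings with adjusted p up to 0.159. Rsad2, the antiviral enzyme viperin, fell by 0.52 (standard error 0.151, edgeR adjusted p = 0.0049) on the log2 scale with the medium, and Bst2, tetherin, had -0.13 (edgeR adjusted p = 0.343).

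**Figure D4:**
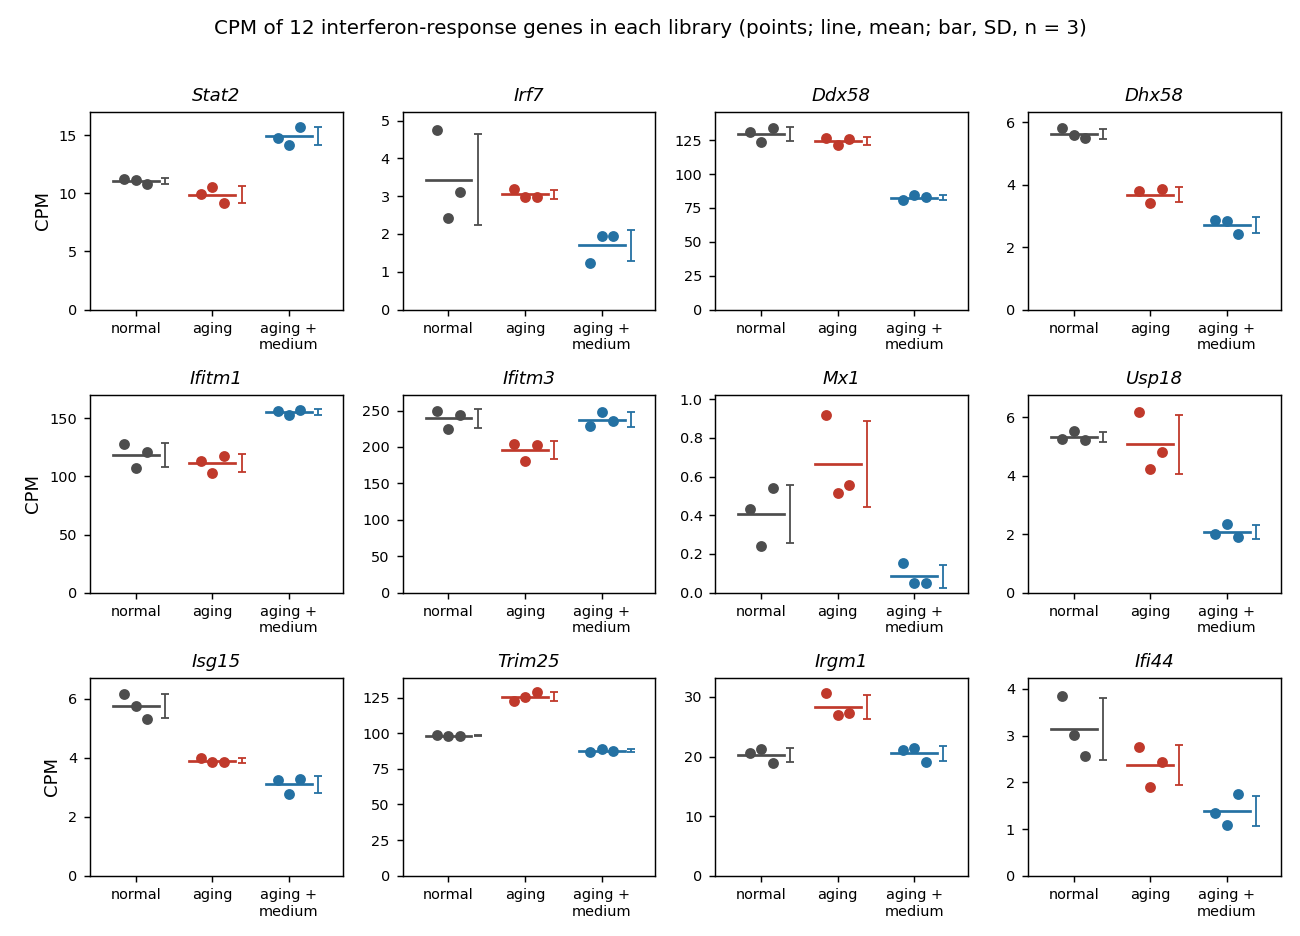
CPM of 12 interferon-response genes in each of the 9 libraries, with the mean as a line and the SD as a bar at the side (n = 3). Ddx58 and Usp18 are low in medium-treated cells alone, Dhx58 and Isg15 step down from normal to aging to medium-treated cells, Trim25 and Irgm1 are highest and Ifitm3 lowest in aging cells, and Stat2 and Ifitm1 are highest in medium-treated cells.

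Among the ubiquitin-like and ADP-ribosylation factors, Usp18, Trim25 and Parp14 fell with the medium, Trim25, Parp9 and Dtx3l rose in aging RGCs, and Isg15 fell in aging RGCs. Usp18, which removes Isg15 from proteins and damps signalling at Ifnar2 (chromosome 6, 121245906 to 121270917), had 5.24, 5.52 and 5.23 CPM in normal RGCs, 6.16, 4.22 and 4.81 CPM in aging RGCs and 2, 2.33 and 1.89 CPM in aging RGCs + USCs medium. Normal and aging values overlapped, and all medium-treated values lay below them. The log2 fold change was -1.28 (standard error 0.189, edgeR adjusted p = 1.78e-06), a 2.43-fold lower level, against aging RGCs and -1.36 (edgeR adjusted p = 3.68e-07) against normal RGCs. It shares exon sequence with Gm44148 on the other strand.

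Isg15, a ubiquitin-like protein strongly induced by type I interferon (chromosome 4, 156199424 to 156200818), had 6.15, 5.77 and 5.33 CPM in normal RGCs, 4, 3.86 and 3.85 CPM in aging RGCs and 3.24, 2.78 and 3.28 CPM in aging RGCs + USCs medium. No 2 groups overlapped. In the fit, the log2 fold change was -0.56 (standard error 0.156, edgeR adjusted p = 0.00421) in aging against normal RGCs and -0.89 (edgeR adjusted p = 2.42e-05) in medium-treated against normal RGCs, and in medium-treated against aging RGCs it was -0.33 (edgeR adjusted p = 0.103). The 12 macrophage markers had summed levels of at least 21.2 CPM in the normal libraries and at most 12.3 CPM in the aging ones, and of 4.21, 2.68 and 23.3 CPM in medium-treated replicates 1, 2 and 3. Their part in the Isg15 values was not tested.

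Trim25, the ligase that activates RIG-I (chromosome 11, 88999376 to 89020293), moved in both steps. It had 98.5, 97.9 and 98.2 CPM in normal RGCs, 123, 126 and 129 CPM in aging RGCs and 86.8, 88.7 and 87.4 CPM in aging RGCs + USCs medium. The 3 groups were separate, with aging RGCs highest. On the log2 scale the change was 0.36 (standard error 0.0388, edgeR adjusted p = 1.43e-08) in aging against normal RGCs, -0.52 (edgeR adjusted p = 8.13e-12) in medium-treated against aging RGCs and -0.16 (edgeR adjusted p = 0.000806) in medium-treated against normal RGCs. The first 2 values share the aging libraries.

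Parp9 and Dtx3l, partners in one ADP-ribosylation and ubiquitin complex, rose in aging RGCs by 0.41 (edgeR adjusted p = 5.8e-05) and 0.39 (edgeR adjusted p = 0.000466) on the log2 scale. Both had changes of -0.09 and -0.17 with the medium that did not pass the test. They share exon sequence on opposite strands, so reads of one may be counted for the other. Parp14 fell by 0.32 (edgeR adjusted p = 0.00145) with the medium, and Gm49730 shares its exons on the same strand.

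Of the interferon-inducible GTPases, which act on membranes around intracellular pathogens and are induced mainly by interferon-γ, Irgm1 and Gbp2 rose in aging RGCs and Irgm1 fell with the medium. Irgm1, a regulator of autophagy (chromosome 11, 48861968 to 48871683), had 20.7, 21.2 and 19 CPM in normal RGCs, 30.7, 26.9 and 27.3 CPM in aging RGCs and 21.1, 21.4 and 19.1 CPM in aging RGCs + USCs medium. The aging values lay above all others, and normal and medium-treated values overlapped. This gave a log2 fold change of 0.48 (standard error 0.076, edgeR adjusted p = 7.3e-06) in aging against normal RGCs, -0.46 (edgeR adjusted p = 1.01e-05) in medium-treated against aging RGCs and 0.02 (edgeR adjusted p = 0.87) in medium-treated against normal RGCs.

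Gbp2 had 2.56, 2.33 and 2.57 CPM in normal RGCs, 3.08, 3.5 and 4.76 CPM in aging RGCs and 4.98, 4.17 and 4.25 CPM in aging RGCs + USCs medium. It rose by 0.61 (edgeR adjusted p = 0.0127) on the log2 scale in aging against normal RGCs, where the adjusted p was 0.138 without aging replicate 3, and by 0.84 (edgeR adjusted p = 0.000428) in medium-treated against normal RGCs. Unlike Irgm1, it had a positive value of 0.24 (edgeR adjusted p = 0.293) with the medium. Gbp3 and Igtp passed the test in no comparison, with -0.39 and -0.22 in medium-treated against aging RGCs, and Igtp shares exons with Irgm2.

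Iigp1 had 15, 9 and 14 counts in normal RGCs, 3, 3 and 2 in aging RGCs and 1, 2 and 4 in aging RGCs + USCs medium. Normal libraries were higher than all others, and medium-treated replicate 3 had the most counts of the remaining 6. The part of the macrophage markers in these counts was not tested. Too few reads kept Iigp1 from the test, and with no filter on low counts its log2 fold change was -2.05 (edgeR adjusted p = 0.021) in aging against normal RGCs and -2.26 (edgeR adjusted p = 0.00847) in medium-treated against normal RGCs.

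In the remaining group of induced genes, Ifi44 fell and Ifi35 rose with the medium. Ifi44, a cytoplasmic interferon-induced protein (chromosome 3, 151730922 to 151749960), had 3.85, 3 and 2.57 CPM in normal RGCs, 2.76, 1.91 and 2.43 CPM in aging RGCs and 1.34, 1.09 and 1.74 CPM in aging RGCs + USCs medium. Normal and aging values overlapped, and medium-treated values were below both. The log2 fold change was -0.76 (standard error 0.265, edgeR adjusted p = 0.0165) against aging RGCs, with an adjusted p of up to 0.0879 without aging replicate 1 or medium-treated replicate 2, and -1.18 (edgeR adjusted p = 0.000199) against normal RGCs.

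Ifi35 had 27.8, 26.5 and 27.2 CPM in normal RGCs, 25.8, 24.4 and 25.6 CPM in aging RGCs and 28.3, 29.4 and 26.8 CPM in aging RGCs + USCs medium. Aging values lay below the rest. Its log2 fold change of 0.16 (edgeR adjusted p = 0.0483) with the medium was lost in 15 alternative settings, with adjusted p up to 0.324. Xaf1, a pro-apoptotic factor, had values of 0.03, -0.14 and -0.11 in the 3 comparisons and passed none.

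The response-element letters were spread over these directions as follows. Of the members in the promoter table, GAAANNGAA was present for 6 of the 8 that fell with the medium, 3 of the 8 that rose and 8 of the 16 that were not called. TTCNNNGAA was present for 1 of 8, 5 of 8 and 5 of 16. The groups are small and the difference between them was not tested.

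Other genes of the interferon pathway, 90 in the table and 62 of them tested, showed how the receptors' partners and further induced genes stood. Like the members, they were chosen with earlier results of these data known. In aging against normal RGCs 15 rose (24.2%) and 10 fell (16.1%), and with the medium against aging RGCs 7 rose (11.3%) and 29 fell (46.8%), where all genes stand at 27.1% and 26%. Against normal RGCs, 10 rose (16.1%) and 28 fell (45.2%) in medium-treated cells, beside 30.6% and 29.9% of all genes. Of the 35 further induced genes tested, 19 fell and 1, Oas3, rose with the medium, and their median log2 fold change was -0.372. Among the 7 receptors and kinases, 4 fell and 1 rose with the medium.

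Tyk2, the kinase bound to Ifnar1, fell by 0.56 (edgeR adjusted p = 2.05e-07) on the log2 scale with the medium, Ifngr2 by 0.40 (edgeR adjusted p = 1.55e-05) and Jak1 by 0.15 (edgeR adjusted p = 0.000295). Socs3, an inhibitor of Jak kinases that Stat3 induces, had 37.2, 33.4 and 37 CPM in normal RGCs, 24.7, 27.3 and 27.1 CPM in aging RGCs and 95.8, 95.7 and 95.5 CPM in aging RGCs + USCs medium. All medium-treated values were far above the rest, and the log2 fold change against aging RGCs was 1.86 (edgeR adjusted p = 1.44e-20).

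At a change of at least 1 on the log2 scale, 6 genes of the pathway fell with the medium (9.68% of 62, against 4.21% of all genes). These were Cmpk2 at -1.01 (edgeR adjusted p = 3.06e-05), a nucleotide kinase, the chemokine Cxcl10 at -1.08 (edgeR adjusted p = 0.000704), and the GTPases Tgtp1 at -2.22 (edgeR adjusted p = 0.0185), Gbp4 at -1.47 (edgeR adjusted p = 3.58e-08), Gbp6 at -1.18 (edgeR adjusted p = 0.000651) and Gbp9 at -1.19 (edgeR adjusted p = 1.23e-06). Tgtp1 rested on few reads, with 10, 10 and 4 counts in aging and 0, 3 and 2 in medium-treated libraries. Its copy Tgtp2 had -0.17 (edgeR adjusted p = 0.772) in the same comparison. Tgtp1 and Gbp6 belong to families of near-identical copies. In aging against normal RGCs none of the 62 reached this size at an adjusted p under 0.05, or at an unadjusted one.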

How the data were processed

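Libraries were made from oligo(dT)-enriched mRNA, and per the labels reads were placed on mm10. Aligner, counting program and strandedness are not stated. The authors deposited, per gene and library, an expected count, which is an estimate without normalization, and an FPKM value scaled by length and library size. Groups came from the labels, the D-galactose dose from the paper, and coordinates from GENCODE M21 on GRCm38 (22267 of 22322 identifiers found).

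Expected counts were rounded and tested in R 4.3.3 with edgeR 4.0.16 (filterByExpr, TMM factors, 1 mean per group over 9 libraries, 6 residual degrees of freedom, quasi-likelihood F test, Benjamini-Hochberg over 12145 genes). CPM were scaled by TMM factors. A call had an adjusted p under 0.05. The biological coefficient of variation was 3.78%. The mean squared deviation between 2 replicates of a group was 2.21 to 4.9 times the variance that counting noise gives. The method was tested on data simulated from each gene's mean CPM over all libraries and its fitted spread, which cannot show how it does where that model fails. There, for medium-treated against aging RGCs, it called 60% of 1.25-fold, 84% of 1.5-fold, 98% of 2-fold and 92% of 3-fold changes. Only a small part of the genes was changed in the simulation, whereas 27.1% and 26% of genes were called higher and lower in the data. The adjustment over all genes therefore differs, and these rates do not describe the test on the data.

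Members and lists were chosen with earlier results of these data known. Given by library were the receptors, the signalling factors, members with a log2 fold change of at least 1 and an adjusted p under 0.05 in any comparison, and in each role group the member with the highest FPKM and that with the largest change with the medium. Values of other members and pathway genes were chosen after they were seen. Of the pathway list, 2 symbols were not used, since the table holds those genes under newer names. A further gene of that list is not reported here. Deviations of same-numbered replicates had correlations of -0.0368 to 0.0479, so replicate numbers did not pair libraries. Alternatives were DESeq2 1.42.0, limma 3.58.1 on log2(FPKM + 1) and log2(FPKM + 0.1), other scaling and filters, a fold change of 1.5 or a log2 fold change of 1, the groups compared alone, a replicate block, each library left out, and, chosen after seeing the data, normal replicate 1 and medium-treated replicate 3 left out together.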

Additional observations from a re-analysis of the deposited data

How the results depend on the processing

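The size required of a change moved the counts most. With log2 fold changes of at least 1 in size, interferon-response genes higher and lower numbered 0 and 0 in aging against normal RGCs (6 and 3 without the requirement). They numbered 0 and 2 in medium-treated against aging RGCs (8 and 12), and 0 and 7 in medium-treated against normal RGCs (10 and 15). Iigp1, not among the 38, passed the filter without normal replicate 2 or without any 1 aging or medium-treated replicate. It then fell by that much in aging against normal RGCs. There it was 1 of 39 members (2.56%), beside 1.52% to 1.77% of all genes. At a fold change of at least 1.5, 1 member was higher and 1 lower in aging against normal RGCs. The shares of all genes were 3.1% and 4.82%. In medium-treated against aging and against normal RGCs members numbered 1 and 6 (3.47% and 8.34%) and 1 and 11 (4.57% and 11%). Ifih1, Ddx58 and Stat2 lay just past that cutoff in medium-treated against aging RGCs. The 7 lower in medium-treated against normal RGCs by at least 1 on the log2 scale became 4 without normal replicate 1, and 3 without it and medium-treated replicate 3. With any other single library left out they numbered 5 to 7. Those higher in medium-treated against normal RGCs numbered 6 without TMM factors and 6 with limma on log2(FPKM + 1) or log2(FPKM + 0.1). Leaving out each library in turn gave 6 to 8 higher and 3 to 6 lower in aging against normal RGCs. It gave 7 to 8 and 10 to 12 in medium-treated against aging RGCs, and 7 to 10 and 11 to 15 in medium-treated against normal RGCs. In some of these fits, such as that without normal replicate 2, Iigp1 passed the filter and 39 members were tested. The replicate block, a number that does not pair the libraries, gave 7 and 3, 7 and 12, and 10 and 14. The share of all genes called was not computed for the refits with libraries left out or with the block. Over the 54 calls of the 38 members in the 3 comparisons, 1020 values under the alternatives that refit the test, with no size required, gave 932 with the same direction and call, 88 with the same direction and no call, spread over 15 calls, and 0 with another direction. Gbp2 in aging against normal RGCs (adjusted p = 0.138 without aging replicate 3) and Ifit1 in medium-treated against normal RGCs (adjusted p = 0.206 without normal replicate 1) were among the calls lost. The cause of these losses was not tested. Depth limits Mx1, Mx2, Ifit3, Zbp1 and Iigp1, which had at most 26 counts in a library.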

Other observations

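The guanylate-binding protein genes, GTPases that coat pathogens and vacuoles, lie on chromosomes 3 and 5 and were chosen for description after their values were seen. On chromosome 5, Gbp4, Gbp6 and Gbp9 fell with log2 fold changes of -1.47, -1.18 and -1.19 in medium-treated against aging RGCs, and their aging and medium-treated libraries did not overlap. Gbp9 had 4.16, 4.75 and 3.26 CPM in normal RGCs, 6.16, 6.75 and 6.53 CPM in aging RGCs and 2.57, 2.83 and 3.12 CPM in aging RGCs + USCs medium. On chromosome 3, Gbp7 fell by 0.54 (edgeR adjusted p = 0.00485), while Gbp2, Gbp3 and Gbp5 had 0.24, -0.39 and 0.94 and did not pass the test in that comparison. Gbp10, Gbp11 and Gbp8 on chromosome 5 and Gbp2b on chromosome 3 had too few reads to be tested. The spans of Gbp4, Gbp8 and Gbp9 overlap on one strand and the copies are alike, so reads may be split between them, and the difference between the chromosomes was not tested.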
